A study of Homo sapiens with 15 samples.

Results

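The trimethylation of lysine 4 on histone H3 (H3K4me3) was compared with RNA polymerase II (RNAPII) at gene starts, in 1 ChIP-seq library of each and 1 library of input chromatin. All 14432 gene starts of the deposited table were used, with no selection, from 3 of the 15 samples of the series. The series concerns PHC1, a Polycomb protein, its binding to RNA and its place on chromatin. Every sample came from HEK293T T-Rex cells, an established human embryonic kidney line that carries the SV40 large T antigen and a tetracycline repressor. The 3 ChIP libraries came from cells with no transgene, no treatment, and fixation in 1% formaldehyde for 6 minutes, at about 30M cells per plate. The immunoprecipitations used 2 µg of an antibody, against H3K4me3 or against the C-terminal domain of RNAPII, and the input used none. H3K27me3, EZH2 (1 ChIP library each from the same untreated line) and total nuclear RNA (2 libraries, replicates 1 and 2) served as further readouts. So did the authors' pooled ChIP scores of PHC1 and of PHC1-dFCS (2 libraries each), the latter by its name a form of PHC1 lacking FCS. The statement of no transgene and no treatment does not extend to these PHC1 and PHC1-dFCS libraries. With 1 library for each target there was no replicate check of any ChIP value. The shares, folds and medians below therefore describe these libraries, and no test across samples was run. ChIP values are reads at the start per 10M reads of the library (M for the prefix mega), rebuilt from the deposited scores before the input was subtracted. Intervals are exact 95% Poisson intervals of the reads and cover counting error only.

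Trimethylation of H3K4 is placed around the starts of most active genes by the SET1 and MLL methyltransferase complexes, and its readers include the general transcription factor TFIID. CpG islands, stretches rich in CG dinucleotides, attract these complexes through CXXC-domain proteins such as CXXC1. RNAPII is loaded at the start by the general factors and often pauses a short way downstream before it elongates, so that a ChIP signal at the start holds loaded, paused and passing polymerase. In a population of cells, fewer cells with a mark and less mark in each cell cannot be told apart.

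The promoters of 7 genes that the results turn on are shown here, each as the 250 bases before the start that RefSeq lists first, on assembly GRCh38.p14, 5′ to 3′ on the gene's strand, with CG dinucleotides in capitals. The deposited positions are on hg19 and the window counted by the authors is not given in the sources used here, so a printed promoter need not be the exact stretch that was counted. POLR2A (chr17:7484116-7484365, plus strand) had far more RNAPII than its H3K4me3 level usually carried. The histone genes H2BC5 (chr6:26157871-26158120, plus strand) and H2BC21 (chr1:149886683-149886932, minus strand) also lay above, and their TATAAA begins at position -28 and -30 from the start.

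POLR2A: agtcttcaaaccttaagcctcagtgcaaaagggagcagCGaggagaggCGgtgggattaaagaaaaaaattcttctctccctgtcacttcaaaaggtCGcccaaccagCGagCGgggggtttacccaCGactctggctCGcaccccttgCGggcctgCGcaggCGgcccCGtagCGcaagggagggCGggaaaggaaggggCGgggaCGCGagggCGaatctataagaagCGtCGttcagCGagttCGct
H2BC5: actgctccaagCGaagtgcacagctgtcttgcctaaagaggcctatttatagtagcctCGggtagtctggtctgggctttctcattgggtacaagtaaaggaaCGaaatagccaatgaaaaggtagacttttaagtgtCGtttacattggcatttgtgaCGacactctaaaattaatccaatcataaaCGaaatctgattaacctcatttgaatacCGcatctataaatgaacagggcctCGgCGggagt
H2BC21: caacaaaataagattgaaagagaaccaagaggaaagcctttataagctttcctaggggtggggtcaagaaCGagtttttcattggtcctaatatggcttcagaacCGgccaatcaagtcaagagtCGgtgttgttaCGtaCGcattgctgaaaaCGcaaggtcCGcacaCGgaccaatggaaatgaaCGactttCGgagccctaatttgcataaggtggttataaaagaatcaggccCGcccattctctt

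SV2C (chr5:76083133-76083382, plus strand) and EFNA5 (chr5:107670938-107671187, minus strand) had much H3K4me3 and almost no RNAPII, and both are rich in CG dinucleotides.

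SV2C: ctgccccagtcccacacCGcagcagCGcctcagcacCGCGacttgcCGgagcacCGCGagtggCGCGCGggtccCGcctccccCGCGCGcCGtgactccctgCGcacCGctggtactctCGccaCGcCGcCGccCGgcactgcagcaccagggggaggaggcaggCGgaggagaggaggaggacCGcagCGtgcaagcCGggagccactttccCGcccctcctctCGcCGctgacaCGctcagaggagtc
EFNA5: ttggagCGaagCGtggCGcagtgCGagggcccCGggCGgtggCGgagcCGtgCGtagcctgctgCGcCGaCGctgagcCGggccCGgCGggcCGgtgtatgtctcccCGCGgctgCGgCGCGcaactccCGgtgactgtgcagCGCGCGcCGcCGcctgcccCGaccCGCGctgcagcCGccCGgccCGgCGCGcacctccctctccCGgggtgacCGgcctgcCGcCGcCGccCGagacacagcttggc

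TAF4 (chr20:62065882-62066131, minus strand) and the olfactory receptor gene OR51F2 (chr11:4821071-4821320, plus strand) were counted as bound by RNAPII with H3K4me3 under the boundary used below. They stand at opposite ends in CG content, with 47 and 1 CG dinucleotides, and both had 0 input reads.

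TAF4: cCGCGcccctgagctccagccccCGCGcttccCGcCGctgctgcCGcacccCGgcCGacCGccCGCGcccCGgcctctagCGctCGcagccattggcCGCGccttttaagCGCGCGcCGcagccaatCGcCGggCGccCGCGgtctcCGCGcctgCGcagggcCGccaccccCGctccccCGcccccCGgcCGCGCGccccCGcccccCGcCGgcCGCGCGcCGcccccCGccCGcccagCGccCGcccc
OR51F2: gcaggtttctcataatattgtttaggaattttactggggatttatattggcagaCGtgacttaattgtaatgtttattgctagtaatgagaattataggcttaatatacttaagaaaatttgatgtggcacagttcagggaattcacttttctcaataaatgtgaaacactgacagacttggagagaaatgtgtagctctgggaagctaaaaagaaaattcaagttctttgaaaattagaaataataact

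Library sizes were 42.9M reads (H3K4me3), 32.5M reads (RNAPII) and 38.7M reads (input). The median start had 136 H3K4me3 reads, 24 RNAPII reads and 12 input reads, and 4.99%, 1.56% and 0.491% of each library lay at the starts of the table. Starts with 0 reads numbered 60, 61 and 91, and for these the upper 95% limit of RNAPII is 1.13 per 10M. Among the 33 starts on chromosome Y, 28 had 0 reads in every library, and 0% were marked by H3K4me3. Of the 10 markers of HEK293 cells, 7 were in the table, and 6 of these (CDH2, LIN28B, NEFL, PAX2, VIM and INA) carried both H3K4me3 and RNAPII. NEFM did not. No marker of hepatocytes (0 of 10), blood cells (0 of 9) or keratinocytes (0 of 5) was marked by H3K4me3, and among 7 markers of the adult kidney only LRP2 was. LRP2 was not called bound by RNAPII. Without the mark, 1 of the 5 keratinocyte markers was still called bound by RNAPII. Of 6 fibroblast markers COL1A1 was marked, and of 7 neuronal markers GAP43, MAP2 and SYP were, with 1 neuronal marker called bound.

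H3K4me3 divided the starts into 2 populations with few starts between them. The density of starts had 1 peak at 2.7 and another at 56.9 reads per 10M, a 15.6-fold distance on the scale of the value plus 1. The density in the valley at 10.2 per 10M was 17.5% of that at the 2.7 peak, the less dense of the 2. A fit of 2 normal distributions to the log2 values gave the lower population 39.6% and the upper 60.4% of the weight, with means of 2.88 and 49.6 per 10M. The fitted populations met at 13.0 per 10M, or 55.7 reads, and starts above this boundary are called marked. Marked starts numbered 8740, which is 60.6% of all. Only 575 starts (3.98%) lay within 0.5 log2 units of the valley. That window is centred on the valley at 10.2 and not on the boundary at 13.0 per 10M. Above the boundary, the 437 marked starts with least H3K4me3 had a median of 16.3 per 10M.

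RNAPII showed the same parting far less sharply. Its density peaked at 3.68 and at 15.8 per 10M, 3.58-fold apart, and the valley at 7.93 per 10M still held 66.4% of the density at the 15.8 peak, the less dense of the 2. The input had its main peak at 3.33 per 10M, with its 5th and 95th percentile at 1.03 and 6.45. The peaks of H3K4me3 at 2.7 and RNAPII at 3.68 thus lay at about the input level, and the parting of RNAPII was shallower than that of H3K4me3 in these libraries. RNAPII also had fewer reads at the starts, and the part of this in the shallower valley was not tested.

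**Figure D1:**
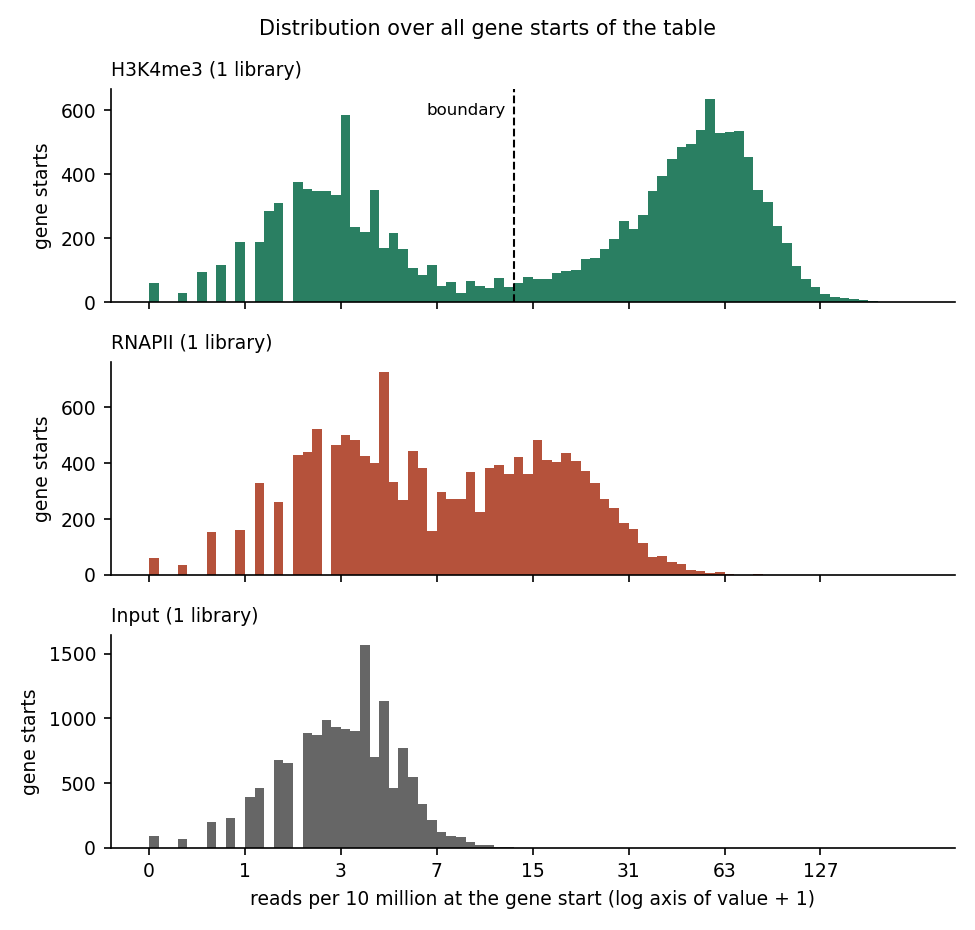
Number of gene starts (y axis) by reads per 10M at the start (x axis, log axis of the value plus 1) for the 1 library each of H3K4me3, RNAPII and input. H3K4me3 has 2 separate peaks, at 2.7 and 56.9 per 10M, while the valley of RNAPII stays shallow and the input has 1 main peak near 3.33.

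Across all starts RNAPII rose with H3K4me3. Spearman's rho was 0.836 over 14432 starts, 0.642 over the 8740 marked starts and 0.284 over the 5692 unmarked ones. These points share 2 libraries, 1 input and the copy number of each locus, and they are not replicates. H3K4me3 and RNAPII each correlated with the input at rho 0.251 and 0.259 over all starts, and at 0.265 and 0.311 over the unmarked starts. In unmarked starts the relation of the 2 targets was therefore no closer than that of RNAPII with the input.

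The relation was flat below the boundary and steep above it. Over 20 equal groups of starts ordered by H3K4me3, the median RNAPII went from 2.46 per 10M in the lowest group, at a median H3K4me3 of 0.932, to 3.69 at a median H3K4me3 of 4.66. It was 3.99 at 8.85, in the group that spans the valley. Among marked starts it was 5.22 at 19.8, 8.3 at 28.3, 13.8 at 50.3 and 26.7 at 101 per 10M, where the middle 50% of starts ran from 20.3 to 33.5. Within 10 equal groups of unmarked starts the slope of the group medians on log2 axes was 0.23, and within 20 equal groups of marked starts it was 0.88. It was 0.93 in the lower 10 of these groups of marked starts and 0.85 in the upper 10, so no plateau was seen at the most marked starts. The input also rose along these groups, from a median of 2.32 in the lowest to 4.9 in the highest, and its part in the slope was not tested.

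**Figure D2:**
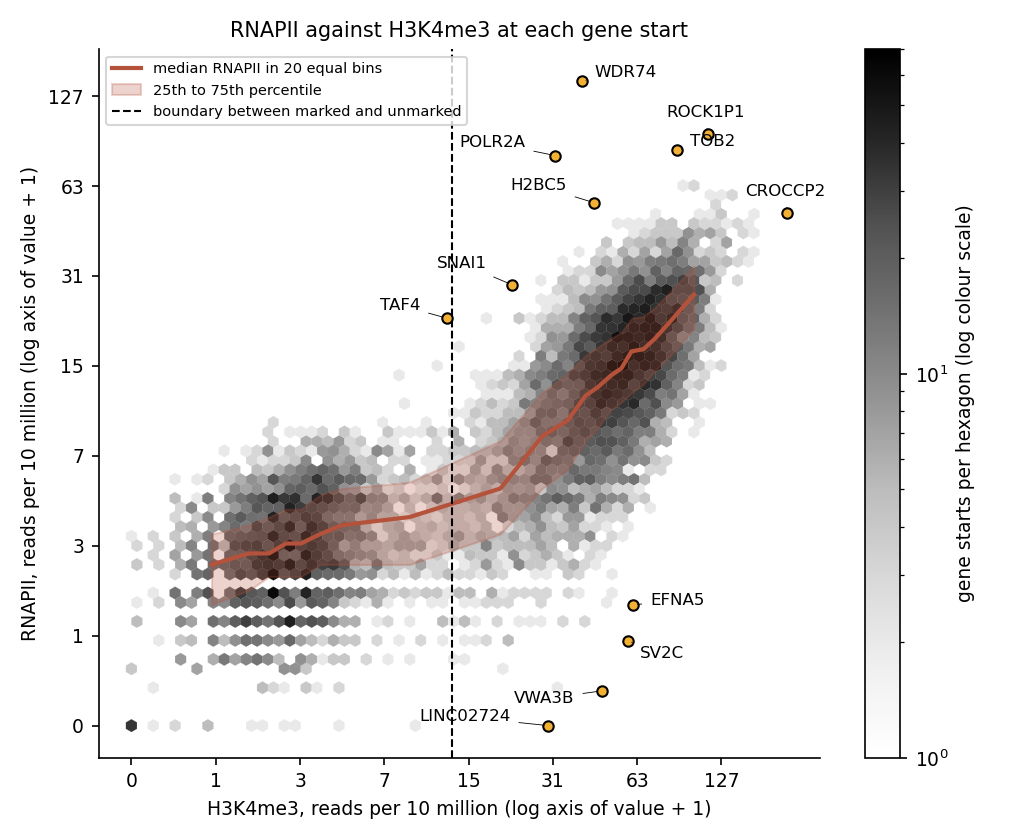
RNAPII (y axis) against H3K4me3 (x axis) at each gene start, both in reads per 10M on log axes of the value plus 1, shaded by the number of starts, with the median (line) and middle 50% (band) of 20 equal groups. The line is flat left of the dashed boundary at 13.0 per 10M and climbs to 26.7 per 10M RNAPII in the most marked group.

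Most marked starts held RNAPII and few unmarked ones did. A start was called bound where RNAPII was at least 2 times the input (both plus 1 per 10M), which held for 7520 starts or 52.1% of all. Among marked starts 7057 were bound (80.7%), and among unmarked starts 463 (8.13%). The bound share was 6.51% in the group with a median H3K4me3 of 4.66, 16.8% at 8.85, 38.8% at 19.8, 63.2% at 28.3, 84.6% at 50.3 and 95.8% at 101 per 10M. Over 10 equal groups ordered by RNAPII, 8.8% of starts were marked in the lowest, 53.8% in the fifth, 90.8% in the sixth, 99.0% in the seventh and 100% in the highest. High RNAPII without the mark was thus almost absent from the table, whereas the mark with little RNAPII was not: 1683 marked starts (11.7% of all) were not called bound. The remaining 5229 starts (36.2%) had neither.

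The marked starts without the call still had more RNAPII than unmarked ones. Their median was 5.53 per 10M, against 16.3 at marked and bound starts and 3.07 at starts with neither. Their median H3K4me3 was 34.0 per 10M, against 56.6 at marked and bound starts. Their median input was 3.87 against 3.10. Bound was called from RNAPII over input, so the differences in RNAPII and input between these classes are partly set by the call. The nuclear RNA of these genes was also intermediate. Per kilobase (kb) of the deposited gene region, median RNA was 0.44 and 0.432 CPM (counts scaled to the library total) in replicates 1 and 2, against 2.11 and 2.12 for marked and bound genes and 0.00992 and 0.00953 for genes with neither.

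The 463 unmarked starts called bound were mostly starts with very little input. Their median input was 5 reads, or 1.29 per 10M, against 3.10 in the class with neither, and their median RNAPII was 4.61 per 10M, or 15 reads. Over starts with at least 10 input reads the share of unmarked starts called bound fell to 1.42%. H3K27me3, the Polycomb mark, was at least 2 times the input in 32.8% of this class, against 1.42% of marked and bound starts, 4.93% of marked starts not bound and 7.86% of starts with neither, and it is divided by the same low input. Median RNA was 0.0199 and 0.0198 CPM per kb. The authors' pooled PHC1 score, from which input was subtracted, had a median of 1.65 here, against 0.0906, -0.729 and 0.14 in those classes. Their pooled PHC1-dFCS score had medians of 2.42, 1.33, 0.372 and 0.967. Median input was 1.29, 3.10, 3.87 and 3.10 per 10M in the same order. A low input raises such a score, and its part in these medians was not tested.

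TAF4, which encodes a subunit of TFIID, had the most RNAPII over input among the unmarked starts. It had 53 H3K4me3 reads (12.3 per 10M, just under the boundary of 13.0), 72 RNAPII reads (22.1 per 10M, interval 17.3 to 27.9) and 0 input reads. Its RNA was 43.1 and 42.1 CPM. KDM4B, a histone demethylase gene, was similar, with 50 H3K4me3 reads, 38 RNAPII reads and 4 input reads. Both are therefore near the boundary rather than free of the mark. IFITM3, an interferon-induced antiviral gene, had 24 H3K4me3, 15 RNAPII and 0 input reads. OR51F2 had 6 H3K4me3, 12 RNAPII and 0 input reads and 0 RNA counts in both replicates, so its call rests on few reads over none.

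**Figure D3:**
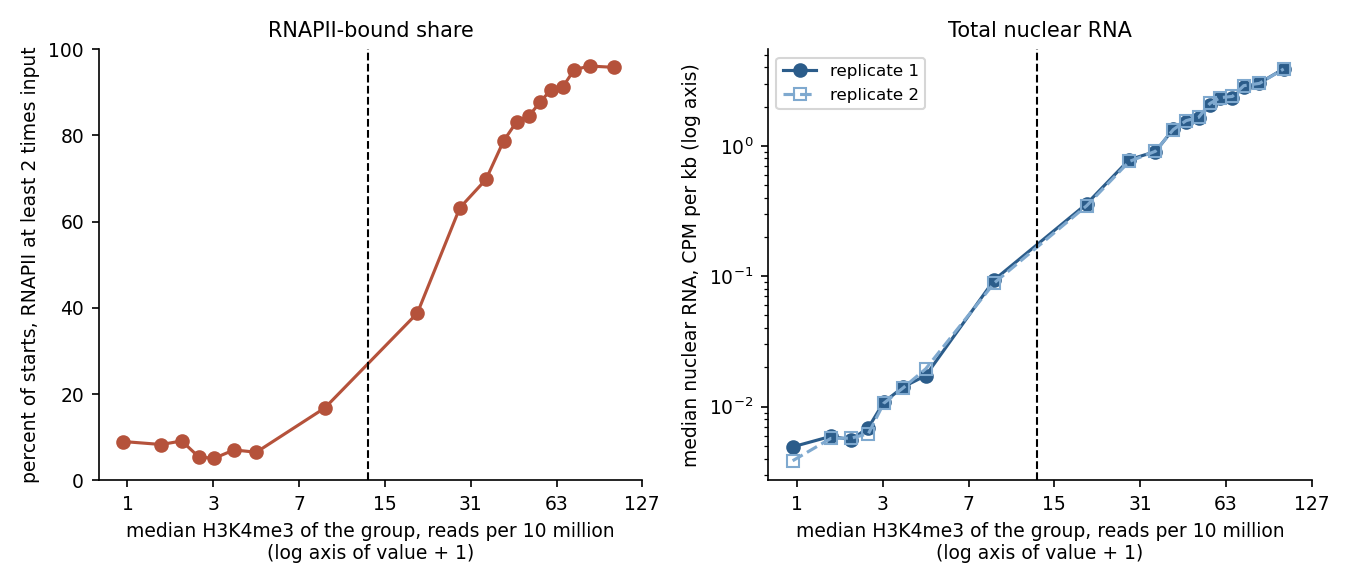
Left, percent of gene starts with RNAPII at least 2 times input (y axis), and right, median nuclear RNA in CPM per kb (y axis, log) in replicates 1 and 2, for 20 equal groups of starts by median H3K4me3 in reads per 10M (x axis, log axis of the value plus 1). The bound share stays at or under 9.14% in the 7 lowest groups and reaches 95.8% in the highest, and median RNA goes from 0.00492 to 3.89 CPM per kb in replicate 1, with the bound share steepest just right of the dashed boundary.

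The 5 starts with most H3K4me3 were CROCCP2, LINC00910, NBPF1, PLEKHG2 and ZNF234. CROCCP2 had 936 reads and NBPF1 792, with RNAPII at 166 and 264 reads and input at 42 and 72. PLEKHG2 had 788 H3K4me3, 84 RNAPII and 29 input reads. LINC00910 had 806 H3K4me3 reads and 197 RNAPII reads but 135 input reads, and was not called bound. ROCK1P1, a pseudogene copy of ROCK1, had 486 H3K4me3, 308 RNAPII and 390 input reads. The input at CROCCP2, NBPF1, LINC00910, PLEKHG2 and ROCK1P1 lay above its 95th percentile of 6.45 per 10M. NBPF1 and ROCK1P1 belong to sequences with near-identical copies elsewhere in the genome, and how reads with several matches were placed is not given in the sources used here, so these values are uncertain.

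A trend of RNAPII on H3K4me3 was drawn through the medians of 50 equal groups of starts. A start was called off the trend where RNAPII, plus 1 per 10M, lay at least 2-fold from it and the Poisson interval of its reads left the trend out. This gave 488 starts above (3.38% of all) and 1058 below (7.33%). The fold alone called the same 488 and 1058 starts, so the interval took out none. Among marked starts 368 were above (4.21%) and 714 below (8.17%). Among unmarked starts 120 (2.11%) were above and 344 (6.04%) below, with medians of 27.5 and 2 RNAPII reads. The calls below among unmarked starts rest on these few reads: 68 of the 344 were left with the interval taken on read numbers divided by 2, and 0 with a pseudocount of 4 per 10M, with the added constant of 10 kept or with at least 10 reads in both libraries. The spread about the trend was 0.66 log2 units (SD) over marked starts, with 5% of them under -1.19 and 5% over 0.93, so the tail below was the longer one. With a pseudocount of 4 in place of 1 per 10M the marked starts off the trend were 201 above and 274 below. At 4-fold 5 and 48 were left.

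POLR2A, which encodes the largest subunit of RNAPII itself, lay furthest above among starts with input between its 5th and 95th percentile. It had 136 H3K4me3 reads (31.7 per 10M, interval 26.6 to 37.5), 260 RNAPII reads (79.9 per 10M, interval 70.5 to 90.2) and 13 input reads (3.36 per 10M). The trend at its H3K4me3 level was 9.06 per 10M, which puts POLR2A 3.01 log2 units or 8.04-fold above it. H3K27me3 had 0 reads there. Its RNA was 100.0 and 90.1 CPM. Its promoter, printed above, has 21 CG dinucleotides and no TATAAA.

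Other starts far above the trend had nearly as many RNAPII as H3K4me3 reads, though the H3K4me3 library was larger. SNAI1, a repressor of epithelial genes, had 94 reads of each and lay 2.10 log2 units above. H2BC5, a histone H2B gene, had 188 H3K4me3 and 180 RNAPII reads (2.06 log2 units). JPT1 had 130 and 123 reads (2.01), and NFYB, a subunit of the CCAAT-binding factor NF-Y, had 74 and 71 (1.98). These 4 had between 9 and 16 input reads. TOB2, an antiproliferative gene, combined a high level of both, with 378 H3K4me3 and 271 RNAPII reads (1.81). GPX4, a peroxidase that protects lipids, had 182 and 148 reads (1.80), and DENND6A and GXYLT1 lay 1.79 and 1.74 above. TEX14 (1.83), which is needed for germ cell bridges, was below the H3K4me3 boundary with 29 reads and had 53 RNAPII reads. The most RNAPII of all was at WDR74, with 463 reads (142 per 10M, interval 130 to 156), 170 H3K4me3 reads and 38 input reads, 3.53 log2 units above the trend. Its input of 9.81 per 10M is above the 95th percentile. A small nuclear RNA gene lies next to this start, and reads of the pair cannot be told apart.

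Far below the trend, starts with ample H3K4me3 had between 0 and 6 RNAPII reads. VWA3B had 201 H3K4me3 reads (46.8 per 10M, interval 40.6 to 53.7), 1 RNAPII read (0.307 per 10M, upper limit 1.71) and 11 input reads. The trend there was 12.9 per 10M, so VWA3B lay 3.41 log2 units below. LINC02724 had 128 H3K4me3 and 0 RNAPII reads (-3.26) and DGKG, a diacylglycerol kinase, had 165 and 1 (-3.19). All 3 had RNAPII below the input, which was 2.84, 2.06 and 4.13 per 10M. ITIH5 had 251 H3K4me3 and 4 RNAPII reads (-2.98), and MYOCD, a cofactor of smooth muscle genes, had 263 and 6 (-2.66). DNER, a neuronal transmembrane protein, had 140 and 2 (-2.68). RNA of VWA3B, DGKG, ITIH5, MYOCD and DNER was at or under 0.015 CPM per kb in replicate 1.

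SV2C, a synaptic vesicle protein gene, had 250 H3K4me3 reads (58.2 per 10M) and 3 RNAPII reads (0.922 per 10M, interval 0.19 to 2.69), against a trend of 16.5, 3.19 log2 units below. It also had 46 H3K27me3 reads (10.7 per 10M) over an input of 15 reads (3.87 per 10M). GJD2, a neuronal gap junction gene, had 95 H3K4me3, 0 RNAPII and 38 H3K27me3 reads, and lay -2.82 log2 units from the trend. The 2 genes differed in RNA: SV2C had 0.721 and 0.767 CPM per kb, and GJD2 0 and 0.00941.

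Some of the starts with few RNAPII reads belonged to genes with much nuclear RNA. Of the 714 marked starts below the trend, 127 (17.8%) had more RNA per kb than the median of genes on the trend, 1.81 CPM per kb. The examples that follow were chosen after their values were seen. EFNA5, an ephrin ligand, had 262 H3K4me3 and 5 RNAPII reads, 1.54 against a trend of 17.0 per 10M, with 3.7 and 3.62 CPM per kb over 294 kb. SHISA2 had 211 H3K4me3 and 5 RNAPII reads with 8.83 and 8.67 CPM per kb. F2R, the thrombin receptor, had 317 and 5 reads with 2.41 CPM per kb in replicate 1. HMG20B had 210 and 7 reads with 5.25 CPM per kb in replicate 1. For genes with several starts, the start that was counted need not be the one in use, and this was not tested.

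The mark of Polycomb was more frequent below the trend than on or above it. H3K27me3 was at least 2 times the input at 64 of the 714 marked starts below (8.96%), at 119 of the 7658 on the trend (1.55%) and at 0 of the 368 above. Median H3K27me3 was 2.09, 1.63 and 1.39 per 10M in the same order, while median EZH2, the enzyme that places the mark, was 2.62, 2.62 and 2.33. Median input was 2.84, 3.36 and 3.23, and its part in the ratio was not tested. The authors' pooled PHC1 score had medians of -0.00632, -0.0839 and 0.0858.

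The 183 marked starts with H3K27me3 at least 2 times the input (2.09% of marked starts) had a median H3K4me3 of 27.9, RNAPII of 4.3 and EZH2 of 4.07 per 10M, over a median input of 1.55. They lay at a median of -0.68 log2 units from the trend, and 35.0% of them were called below. 100 of the 183 were still called bound. The 64 below held 4 of the 18 marked ion channel genes below the trend, 4 of 16 solute carriers and 3 of 5 collagens. They held 0 of the 30 marked ZNF genes below. The share over all 714 marked starts below was 8.96%, and these counts are small. FOXC2 and NEUROG3, developmental transcription factors, PTGS2, an inducible prostaglandin synthase, EGR4 and COL12A1 were among the 64, picked here after their values were seen. NEUROG3 had 26.3 per 10M H3K4me3, 3.07 RNAPII and 15.6 H3K27me3. PTGS2 had 44.5, 3.69 and 9.98. In each of the 5 genes RNA was under 0.2 CPM per kb in replicate 1.

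Nuclear RNA followed the distance from the trend on the lower side. Median RNA of marked genes was 0.362 and 0.36 CPM per kb below the trend, 1.79 and 1.82 on it and 3.27 and 3.24 above it, in replicates 1 and 2. The middle 50% ran from 0.0747 to 1.17 below, 0.695 to 4.49 on the trend and 1.46 to 10.1 above in replicate 1, so the sets overlapped widely. Genes under 1 CPM made up 13.2% of the set below, 2.53% of that on the trend and 0.815% of that above. Across the 8740 marked genes rho of RNA per kb was 0.397 with H3K4me3, 0.498 with RNAPII and 0.31 with the distance from the trend. These are correlations across genes that share the same libraries. The order of the set above depends on how the trend is drawn. With H3K4me3 drawn on RNAPII instead, RNA was 1.64 CPM per kb above and 2.1 on the trend, with 0.292 below.

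**Figure D4:**
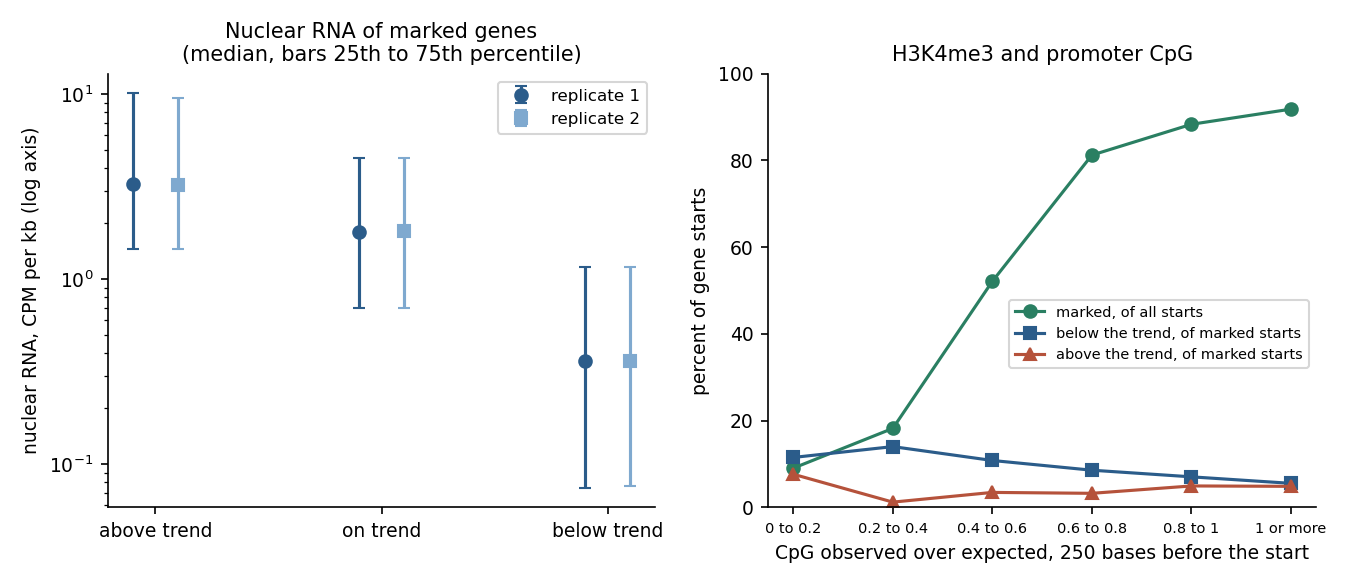
Left, nuclear RNA in CPM per kb (y axis, log) of marked genes above, on and below the trend in replicates 1 and 2 (median, with bars from the 25th to the 75th percentile); right, percent of gene starts (y axis) that were marked, and of marked starts above or below the trend, by CpG observed over expected of the promoter (x axis). Medians run from 3.27 above to 0.362 below in replicate 1, with wide overlap, and the marked share climbs from 9.03% to 91.8% with CpG content.

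Gene families differed in whether they were marked at all and, among marked members, in where RNAPII lay. The lists were put together by gene name and known function, and their shares are set beside those of all marked starts, 4.21% above and 8.17% below. Most genes for the basic machinery of the cell were marked and bound. All 39 cytoplasmic ribosomal protein genes were both, with a median of 71.7 per 10M H3K4me3 and 23.7 RNAPII, 0.38 log2 units above the trend. Only RPS19 passed the call (1.28), and RPL34 was lowest at -0.54. All 54 mitochondrial ribosomal protein genes were marked, with 1 above, 1 below and a median distance of 0.03. Of 52 respiratory chain genes 49 were marked and 44 bound, with 0 above the trend and 2, NDUFB3 and NDUFB7, below. Of 32 proteasome genes 28 were marked and 28 bound, with PSMD8 above (1.43). In the list of translation factors, put together by name, 37 of 40 genes were marked and 34 bound. The 1 above, EIF2AK3 (1.08), is named for a kinase of such a factor. The 20 genes for aminoacyl tRNA synthetases and the 22 cell cycle genes were marked without exception, and none of either list was off the trend. Genes for splicing had 43 of 46 members marked and 4 above (9.30%), with a median of 0.31. SRSF7 (1.46), SRSF6 (1.22) and SRSF3 (1.17), which encode splicing regulators, were furthest above, and SNRPB2 of the U2 particle was the 1 below (-2.17, 174 H3K4me3 and 6 RNAPII reads). With H3K4me3 drawn on RNAPII 0 splicing genes were above.

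Replication-dependent histone genes had the largest median distance of the lists with at least 3 marked members, though only 3 were in the table. H2BC5, H2BC21 and H3C10 lay 2.06, 1.62 and 0.77 log2 units above the trend, and the first 2 passed the call. H2BC21 had 308 H3K4me3 reads (71.7 per 10M), 192 RNAPII reads (59.0 per 10M, interval 50.9 to 68.0) and 25 input reads, against a trend of 18.5. Histone genes are near-identical to each other, so the placing of their reads is uncertain.

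Lists of inducible genes differed in their counts off the trend. Of 38 marked heat shock and DNAJ chaperone genes 0 were above and 1 (2.63%), DNAJC13, below. Over all marked starts 4.21% were above and 8.17% below, and the counts in these lists are small. Of 24 marked immediate early genes, which respond to growth factors within minutes, 4 were above (16.7%) and 3 below (12.5%), with a median of 0.01. IER5 (1.67), KLF6 (1.47) and JUND (1.24) were above. FOS, the founding member of the AP-1 factors, had 197 H3K4me3 reads and 15 RNAPII reads, 4.61 per 10M against a trend of 12.3, and lay at -1.25. EGR4 lay at -1.33. All 15 genes of the unfolded protein and integrated stress responses were marked, at a median of 0.61, with DDIT4 above (1.39), ATF4 at 0.86 within the limits and SEL1L below (-1.08). Among 9 marked p53 targets PMAIP1 (1.64) and GADD45A (1.40) were above and 0 were below.

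Genes of the H3K4me3 and RNAPII machinery were found on both sides of the trend. Among 63 marked genes for RNAPII subunits, general factors, Mediator and pausing factors, POLR2A (3.01) and NELFCD (1.21), a subunit of the pausing factor NELF, were above, and MED13 (-1.48) and CDK7 (-1.13) below. That is 3.17% each way. Among 26 marked genes for H3K4 methylation and demethylation factors 3 were above and 3 below. This share of 11.5% each way compares with 4.21% above and 8.17% below over all marked starts. SGF29 (1.47), BPTF (1.00) and PHF8 (1.00), whose products bind H3K4me3, were above. SETD1B (-1.18), CXXC1 (-1.17) and CHD1 (-1.08) were below: the first 2 encode subunits of SET1 complexes and CHD1 encodes a remodeler that binds the mark. CXXC1 had 165 H3K4me3 reads and 14 RNAPII reads over 20 input reads. All 22 Polycomb subunit genes were marked, with EZH1 (1.45) and EED (1.08) above (9.09%) and RYBP (-1.61) below (4.55%). With H3K4me3 drawn on RNAPII 0 of them were above.

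Among the lists with at least 10 marked members, ion channels, collagens and receptors had the largest shares below the trend. Ion channels and ligand-gated receptors had 60 of 159 members marked, and of these 18 (30.0%) were below and 2 above, with a median of -0.46. CACNG4, a calcium channel subunit, had 170 H3K4me3 and 4 RNAPII reads (-2.48), and KCNK13, a potassium channel, 245 and 11 (-1.92). KCNG1, a potassium channel subunit, lay above (1.11). With H3K4me3 drawn on RNAPII 33 of the 60 were below, where 15.3% of all marked starts were. Receptors named GPR or ADGR had 29 of 73 marked, 7 below (24.1%) and 1 above, GPR19 (1.14). ADGRB3, an adhesion receptor of neurons, lay at -1.89. Of 18 marked collagens 5 were below (27.8%) and 0 above, with COL6A5 at -1.70 and COL12A1 at -1.43. Cytokine genes were rarely marked, 8 of 75, and 5 of those 8 were below, CXCL1 (-1.90), IL15 (-1.63) and IL11 (-1.53) among them. CXCL1 had 244 H3K4me3 and 11 RNAPII reads with 0.0998 CPM per kb in replicate 1. Solute carriers were closer to all marked starts, with 16 of 150 below (10.7%) and 3 above. Of 7 marked cadherins 2 were below, and CDH1 (165 H3K4me3, 6 RNAPII reads, -2.07) contrasted with CDH2 (157 and 57 reads, 0.76 log2 units above the trend and within the limits). Median H3K4me3 of the marked members was lower in these lists than over all marked starts (52.4 per 10M), at 37.0 for channels, 37.0 for receptors and 34.8 for collagens.

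Transcription factor genes of development and zinc finger genes had shares below the trend near that of all marked starts. Of 87 marked developmental factors other than HOX, 10 (11.5%) were below and 4 above, with POU4F2 at -2.52 and MSX1 at 1.68. Among 14 marked HOX genes HOXD13 (1.13) was above and HOXC9 (-1.16) and HOXB7 (-1.04) below. The 301 marked genes named ZNF had 30 below (9.97%) and 10 above (3.32%), at a median of -0.12. On chromosome 19, which holds many clusters of this family, 17 of 147 marked ZNF genes were below (11.6%), 1 above, and the median was -0.20. On other chromosomes the counts were 13 below (8.44%) and 9 above of 154, with a median of 0.01. Other marked genes of chromosome 19 had 50 below (10.2%) and 21 above (4.27%) of 492, at a median of -0.08. The share of ZNF genes below there was thus near that of their chromosome. Their share above was lower, 0.68% from 1 gene. ZNF467 was furthest below (-2.24) and ZNF280C furthest above (1.72).

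Several families were almost wholly unmarked. None of 67 olfactory receptor and 16 keratin-associated protein genes was marked, and 1 of 40 keratins was. Median H3K4me3 was 2.10 per 10M at olfactory receptors, and RNAPII 2.77, with 8 of 67 called bound. Of 500 genes named LINC 71 were marked, with 7 above and 7 below (9.86% each), whereas 51 of 77 antisense RNAs were marked, with 2 above and 3 below. Antisense genes often share a promoter region with the gene opposite, and ChIP reads carry no strand, so the 2 cannot be told apart. Over the 25 lists with at least 10 marked members, 9 had a larger share above and 11 a larger share below than all marked starts.

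**Figure D5:**
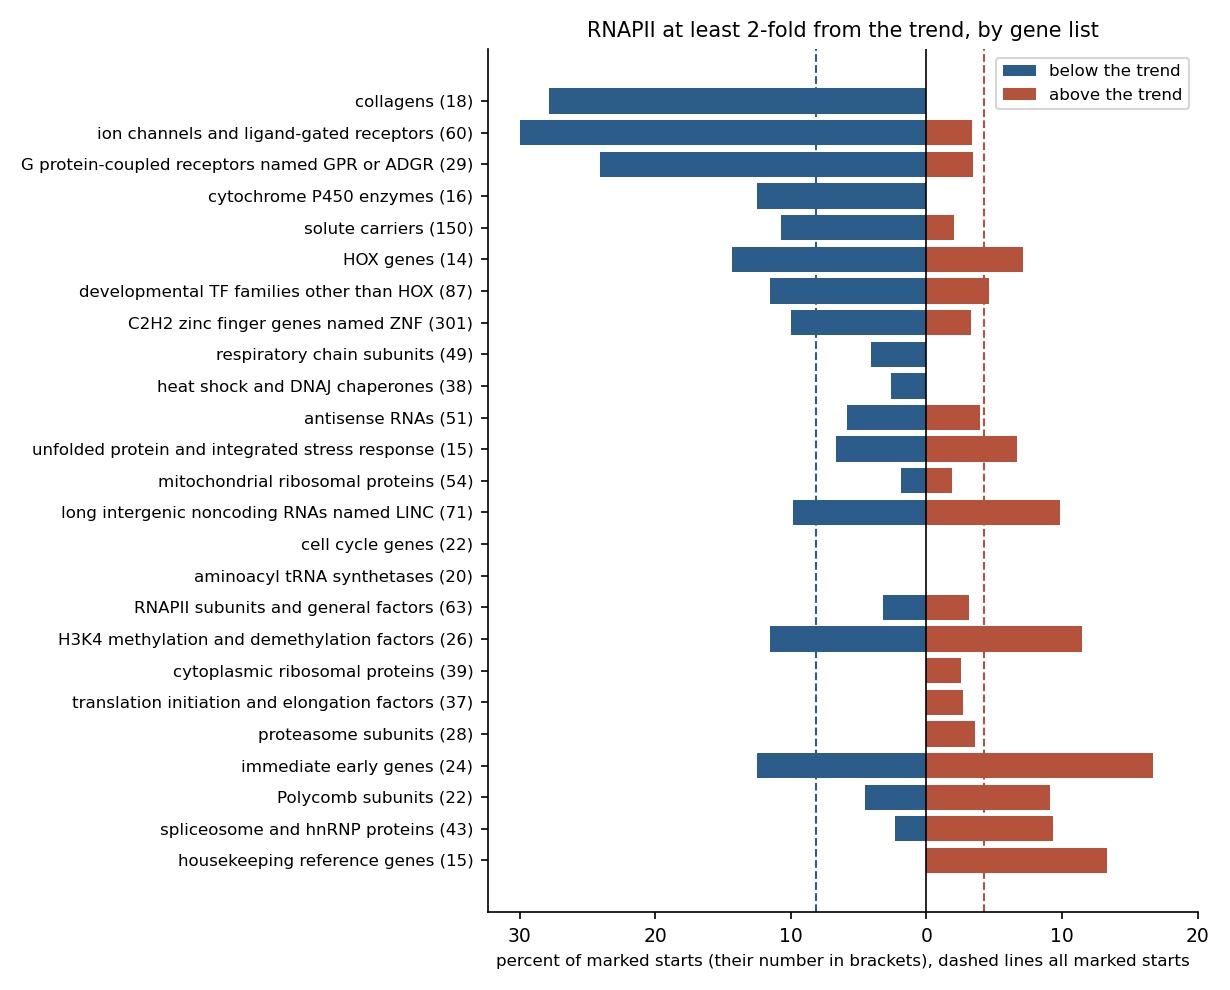
Percent of marked gene starts (x axis) with RNAPII at least 2-fold above (right) or below (left) the trend on H3K4me3, for each gene list with the number of marked starts in brackets (y axis); dashed lines give 4.21% above and 8.17% below over all marked starts. The longest bars to the left are ion channels (30.0%), collagens (27.8%) and receptors named GPR or ADGR (24.1%), and the longest to the right is that of immediate early genes (16.7%).

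Promoter sequence, which played no part in the calls, was set beside them for the 10969 starts (76.0% of all) with a RefSeq promoter. The match covered 80.5% of marked but only 69.1% of unmarked starts and 77.5% of marked starts below the trend. As these last fall under 80%, the values for unmarked starts and for those below the trend are void as a check of the sets and describe only their matched promoters. Marked starts were rich in CpG: the median ratio of CG dinucleotides observed to those expected from base content was 0.84, with the middle 50% from 0.70 to 0.95. The matched unmarked starts had a median of 0.30 (0.15 to 0.59). The share of matched starts that were marked was 9.03% for ratios under 0.2, 18.2% from 0.2 to 0.4, 52.1% from 0.4 to 0.6, 81.2% from 0.6 to 0.8, 88.3% from 0.8 to 1.0 and 91.8% above. Among marked matched starts the share below the trend was 11.5%, 14.0%, 10.8%, 8.56%, 7.03% and 5.53% over the same steps. Marked starts above the trend had a median ratio of 0.88, close to the 0.84 of those on it.

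A TATA box, read as the letters TATAAA on the gene's strand within the last 50 bases before the start, was rare at marked starts and held by both sides of the trend. It was found at 18 of 297 marked promoters above the trend (6.06%), 65 of 6183 on it (1.05%) and 17 of 553 matched ones below (3.07%), against 2.92% of all 27305 promoters of the RefSeq table. Seen the other way, 100 marked starts had it, of which 18 were above and 17 below the trend, at a median of 0.12. Of the 6933 marked starts without it 4.02% were above and 7.73% below. The 18 above were picked out after their values were seen. They include the histone genes H2BC5, H2BC21 and H2AX, JPT1, the splicing gene SRSF3, the transcription factor genes ID4, CEBPA and HOXD13, the mitotic genes NUSAP1 and UBE2S, and ZNF711. The box element CCAAT, on either strand of the 250 bases, was found in 45.8% of promoters above (136 of 297), 35.6% on the trend and 33.0% of the whole table. GGGCGG, the core of the SP1 site, was in 78.1%, 71.8% and 42.3%. CCGGAAG, bound by ETS factors, was in 11.8%, 16.9% and 8.82%. Matched promoters below the trend had CCAAT in 31.8%, GGGCGG in 69.6% and CCGGAAG in 9.95%. A match of letters is no evidence of a bound site.

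Starts of neighbouring divergent genes mostly had the same call. How far their windows hold the same reads is not known, so this agreement cannot be read as a shared state. 453 pairs of starts on opposite strands lay within 1 kb of each other. In 430 of them (94.9%) both starts were marked, with 2 pairs in which only 1 was. Of single starts 95.1% were marked in such pairs, against 61.3% of other starts with a known strand. Between partners rho was 0.942 for H3K4me3 and 0.942 for RNAPII. The starts of divergent pairs were below the trend in 27 of 862 marked cases (3.13%), against 526 of 6171 (8.52%) for other marked starts with a known strand. They were above it in 3.36% against 4.34%. Median H3K4me3 was 68.2 per 10M at divergent marked starts and 51.7 at the others, and RNAPII 17.8 and 13.8. Across the pairs the distance from the trend correlated at rho 0.854 between partners, but windows of partners may overlap and count the same reads.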

How the data were processed

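The labels assign 1 ChIP-seq library each to H3K4me3, RNAPII, EZH2, H3K27me3 and input, and 2 libraries to total nuclear RNA. Per the submitters' processing notes, ChIP reads were handled with Bowtie2 2.2.3, SAMtools 0.1.19 and R 3.3.0 and RNA reads with TopHat2 2.0.11, on build hg19. The window around the start, the handling of duplicates and the counting of RNA reads are not given in the sources used here. Deposited ChIP values are a score for each start, made by the authors from reads scaled to library size after subtraction of the input's. The score was decoded into whole numbers for 14432 of 14432 starts within a tolerance of 1e-08. The lowest decoded number was 10 in every library, and 29 starts had exactly 10 in all 5. Of these 29 starts 28 were on chromosome Y, which had 33 starts in the table. This constant of 10 was therefore taken off, a step chosen after seeing the data. Even read numbers were commoner than odd ones at the low end, so Poisson intervals may be too narrow. The authors' PHC1 and PHC1-dFCS scores join 2 libraries each and were used as deposited. The deposited RNA table holds read counts, with totals of 47187882 and 49626658, and 1 further value column of it was not used. RNA was scaled to CPM and divided by the length of the deposited gene region, since levels of genes were compared. Whether replicates came from separate cultures is not stated. PAR-CLIP files were not used.

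Values were taken as log2 of reads per 10M plus a pseudocount of 1. The marked boundary came from a mixture of 2 normal distributions, and the trend from medians of 50 equal groups. Symbols were matched for 14378 of 14432 starts. Genes named in the text were drawn, not in full, from the 15 starts furthest on each side of the trend with input between its 5th and 95th percentile, the 10 unmarked bound starts with most RNAPII over input, the 10 marked starts not bound with most H3K4me3, the 5 with most H3K4me3 and with most RNAPII, and the 3 furthest on each side in each list of at least 10 starts. Further genes are said to be picked after their values were seen, and the choice among candidates was made with values known. Starts and 46 gene lists were chosen with earlier results of these data known. Calculations used Python 3.11.15, numpy 2.4.6, scipy 1.17.1, pandas 2.3.3, scikit-learn 1.9.0 and statsmodels 0.14.6, and were tested on simulated data.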

Additional observations from a re-analysis of the deposited data

How the results depend on the processing

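No paired analysis was possible because each ChIP target compared had 1 library, and the nuclear RNA replicates have no numbered partner in a second group. Of 122 alternative values that answer a comparison, 59 stayed close to the value reported, a count being close within 1.5 times. Only the correlations and the H3K27me3 difference could change sign, and none did. Counts, shares and medians could not. The order of RNA above and on the trend turned with H3K4me3 drawn on RNAPII (the swapped trend), as given below with the other values that moved. Spearman's correlation over all starts was 0.83 with input between its 5th and 95th percentile and 0.775 with at least 10 reads in both libraries. Over marked starts it was 0.625 and 0.619 under the same limits, 0.601 on the score and 0.656 on the ratio over input. The share of starts that were marked was 59.3% and 61.9% with pseudocounts of 0.25 and 4 per 10M, 61.8% from the density minimum, 64.4% at 2 times the input, 61.8% with the constant of 10 kept and 64.3% for protein-coding genes.

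The bound share of marked starts was 79.6% with the density minimum as boundary, 77.9% with a boundary of 2 times the input, 89.3% and 60.9% with bound set at 1.5 and 3 times the input, 84.6% and 65.6% with pseudocounts of 0.25 and 4, 77.7% with at least 10 input reads and 70.2% with the constant kept. That of unmarked starts was 5.39% with the boundary of 2 times the input, 6.86% with the ratio boundary, 20.9% and 1.42% at 1.5 and 3 times, 14.1% and 0.419% with pseudocounts of 0.25 and 4, 1.42% with at least 10 input reads and 1.03% with the constant kept.

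Starts above the trend numbered 6 at 4-fold, 215 with a pseudocount of 4, 214 with the constant kept and 1251 with H3K4me3 drawn on RNAPII. For marked starts these were 5, 201, 200 and 241. Starts below numbered 58, 274, 271 and 1655, or 538 with at least 10 reads in both libraries, and among marked starts 48, 274, 271 and 1341. Counts that moved by less than 1.5 times include 657 starts above with the ratio over input, 381 of them among the 488, 670 above with a pseudocount of 0.25, and 758 below with the interval on read numbers divided by 2, against 1058. The swapped trend kept 142 of the 368 marked starts above and 650 of the 714 below. At 4-fold, 1 list had a share above and 6 a share below that of all marked starts, in place of 9 and 11.

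Averaged over both replicates, median RNA was 94.9 CPM above, 63.2 on and 15.6 below the trend. Leaving out 1 RNA replicate gave 91.8 to 94.3 CPM above, 62.9 to 63.3 on and 15.4 to 15.7 below. Per kb the averages were 3.28, 1.81 and 0.368, and leaving out 1 replicate gave 3.24 to 3.27, 1.79 to 1.82 and 0.36 to 0.362. With sets from the swapped trend RNA was 54.5, 71.4 and 11.6 CPM, or 1.64, 2.1 and 0.292 per kb, so the set above was no longer the highest. The cause was not tested. The log2 difference of median H3K27me3, below minus on the trend, was 0.23, and 0.44 as a ratio over input. That of EZH2 was 0, and 0.29 as a ratio. Median CpG ratio of marked starts was 0.85 both over all 300 bases and for genes with 1 listed start, and that of unmarked starts 0.31 over 300 bases. The constant, the interval on read numbers divided by 2, the swapped trend, the single start and RNA per kb were added after seeing the data. Depth limits RNAPII at low levels most, as 1 read is 0.307 per 10M.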
